A study of Mus musculus with 21 samples.

Results

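The genes described here build and drive the actomyosin machinery, the filaments of actin and the myosin motors that pull on them. They are 52 of the 22050 genes in the table, chosen by gene name: the actins, tropomyosins, myosin light and heavy chains, myosin light chain kinase, the calponin family and caldesmon, filament crosslinkers, the Arp2/3 complex, factors of filament turnover and capping, membrane linkers of the ezrin, radixin and moesin (ERM) family, SRF with its cofactors, and the small GTPases Rhoa, Rhob and Rhoc with the kinases Rock1 and Rock2. Expression was measured by 3′ mRNA-seq in GFP+ keratinocytes sorted from the dorsal skin of mice that express human p16, a cell-cycle inhibitor that accumulates with aging and senescence, and from control mice without it. The comparison belongs to a study of what prolonged p16 expression does to the epidermis. The p16 mice were K5-rtTA/tet-GFP/tet-p16 and the controls K5-rtTA/tet-GFP, both of a mixed FVB, C57Bl and 129sv background. Both groups received doxycycline from 3 weeks of age for 6 months, so control cells also carried the transactivator, the drug and GFP. The keratin 5 promoter limits the transgenes to keratin 5-positive epithelium, which includes the interfollicular basal layer and hair follicles. Cells positive for CD140a, CD45 or CD31 were gated out, and each of the 4 control and 4 p16 samples held about 80000 cells pooled from 3 mice.

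Actin filaments form a branched meshwork under the control of the Arp2/3 complex and contractile bundles in which tropomyosin and caldesmon coat the filament, alpha-actinin ties filaments together and non-muscle myosin II slides them. Contraction is switched on when myosin light chain kinase or the ROCK kinases raise phosphorylation of the myosin regulatory light chains. In the epidermis this machinery serves adhesion, cell shape, spreading and the tension of the basal layer, and many of its genes are targets of SRF, a transcription factor whose MRTF cofactors sense free actin monomers.

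Of the 52 genes, 47 had a mean normalized read count of at least 1. They were tested with limma on log2(normalized read count + 1), as part of the 12782 genes that passed this filter. The normalized read count is the number of reads on a gene divided by a size factor for the sample. At an adjusted p under 0.05, 9 of the 47 fell in p16 cells (19.1%), against 2.61% of all tested genes called lower. They were Tpm1, Tpm2, Mylk, Myh14, Cnn3, Cald1, Actn1, Arpc1b and Rhoc. The same 9 were called by edgeR, and by DESeq2 together with Myl9. None of the 47 was called higher by limma, with edgeR and DESeq2 on the recovered reads also at 0, against 1.24% of all genes called higher by limma. Before adjustment, 16 were lower and 1 was higher at p under 0.05, where the shares over all genes were 8.93% and 7.02%. Fitted log2 changes were negative for 36 of the 47 (76.6%) and for 50.4% of all genes, and their median was -0.15, beside -0.00275 over all genes. For 13 members every p16 value lay below every control value, and for 1 (Cnn2) every p16 value lay above. The matching shares over all tested genes were 5.63% and 4.19%. The members were chosen with earlier results of these data known, so these shares describe the list and are not a test of it. Reads on the 52 genes made up between 1.46% and 1.61% of a control sample and between 1.41% and 1.48% of a p16 sample.

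**Figure D1:**
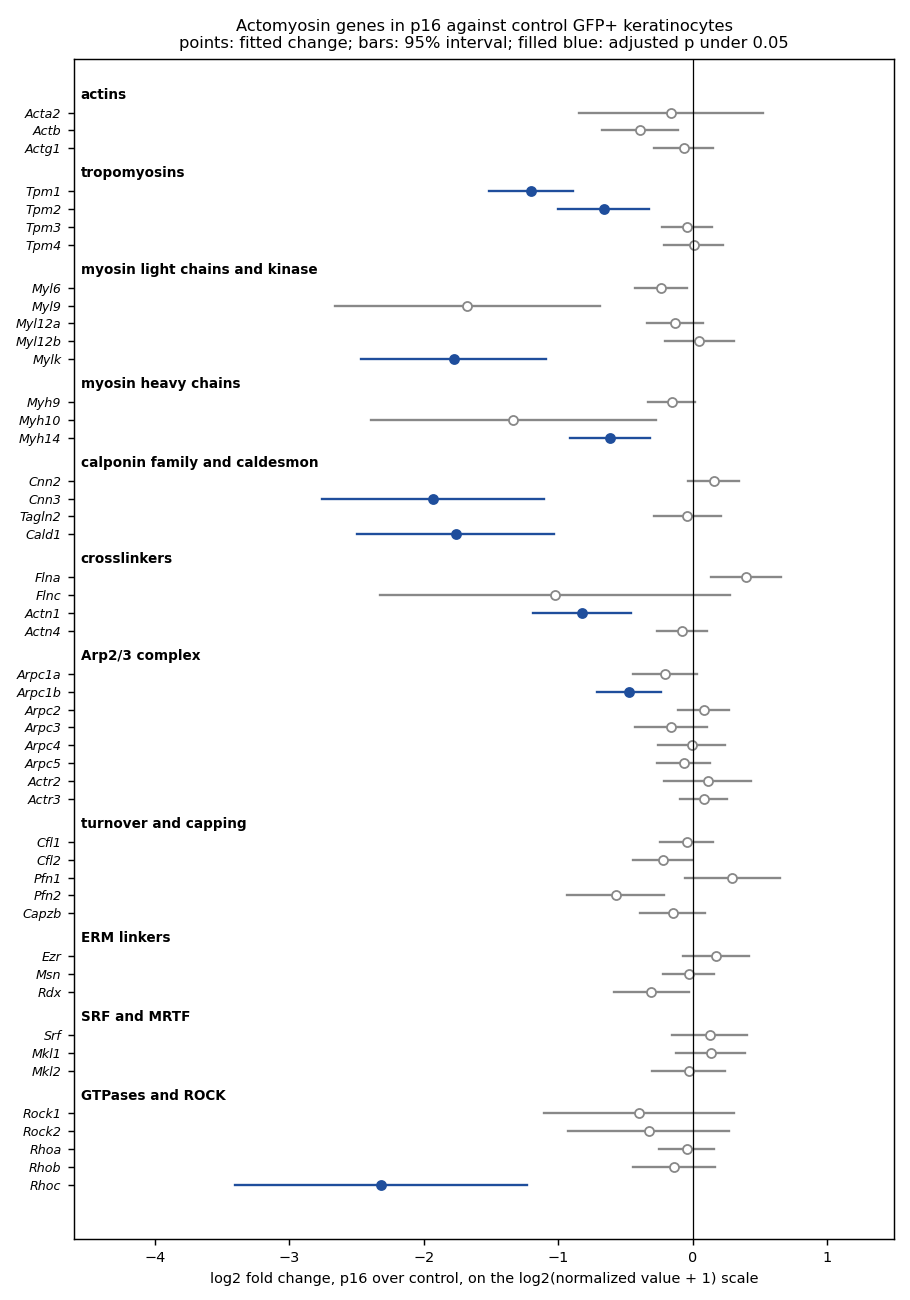
Fitted log2 fold change (p16 over control, on the log2(normalized value + 1) scale, x axis) of the 47 tested genes, grouped by role, with 95% intervals as bars. Filled blue points mark the 9 genes with a limma adjusted p under 0.05, all to the left of 0, and they come from 7 of the 11 groups.

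The libraries held between 1760953 and 3414362 reads on genes in controls and between 2884544 and 3202975 in p16 samples. Reads of the human CDKN2A transgene were few: its normalized read counts were 0.7, 1.3, 2.5 and 1.5 in controls and 1.6, 10.1, 16 and 7.4 in p16 samples. The library labelled p16 replicate 1 therefore lay within the control range, and without it 5 of the members were called lower (Tpm1, Mylk, Myh14, Cnn3 and Cald1). Calls also became fewer over all genes in that fit, with 190 lower and 69 higher, beside 334 and 159 with every library. GFP was between 4152 and 5912.6 in controls and between 3161.8 and 3978.8 in p16 samples. Among pairs of libraries of one group, p16 replicate 4 stood apart, with a chi-square per gene of 6.75 to 8.96 against the other p16 libraries and 3.05 to 5.33 for the remaining pairs. Without p16 replicate 4 the same 9 members were called, and over all genes 343 were lower and 196 higher. Replicate 3 of each group carries another wording of the library protocol in its label, and without both of these libraries 3 members were called lower (Tpm1, Mylk and Cald1). Over all genes 150 were then called lower and 63 higher.

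The SRF link was examined in the DNA upstream of the genes. The table of RefSeq promoters (GRCm38.p6) held a window from 250 bases before to 50 bases after the transcription start for 46 of the 52 members. The CArG box, the 10-base element that SRF binds, was searched on both strands and was present in 1.63% of all 32851 windows and in 1.55% of the 9924 tested genes with a window. It was present for 7 members, namely Acta1, Actg1, Myl6, Myl9, Cnn2, Arpc4 and, with 2 copies, Srf. Only exact matches were counted. None of the 9 members that fell had one in its window, and 7 of the other 37 members with a window did. The upstream part of the Mylk window (chr16:34784700-34784949) lay inside the annotated gene, as did that of the Myl6 window with the match (chr10:128493010-128493259). Actb was among the members without a window. The 250 bases upstream of the start are shown for Srf itself (chr17:46556163-46556412, minus strand), for the cytoplasmic actin Actg1 (chr11:120348496-120348745, minus strand), for Myl9 (chr2:156775214-156775463, plus strand), which had the lowest fitted change of the members with a match, and for Cnn2 (chr10:79988350-79988599, plus strand), the member that was higher in every p16 sample. Tpm1 (chr9:67049214-67049463, minus strand) is shown beside them as the member with the smallest adjusted p, without a match. All of these stretches overlap their annotated genes in part, the Tpm1 stretch for most of its length. Each is written 5′ to 3′ along the strand of its gene, and capitals mark the CArG boxes.
Srf: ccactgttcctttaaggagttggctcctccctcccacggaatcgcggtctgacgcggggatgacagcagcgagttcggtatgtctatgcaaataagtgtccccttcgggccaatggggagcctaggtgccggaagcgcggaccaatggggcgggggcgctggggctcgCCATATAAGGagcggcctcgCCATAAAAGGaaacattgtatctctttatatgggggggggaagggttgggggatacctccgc
Actg1: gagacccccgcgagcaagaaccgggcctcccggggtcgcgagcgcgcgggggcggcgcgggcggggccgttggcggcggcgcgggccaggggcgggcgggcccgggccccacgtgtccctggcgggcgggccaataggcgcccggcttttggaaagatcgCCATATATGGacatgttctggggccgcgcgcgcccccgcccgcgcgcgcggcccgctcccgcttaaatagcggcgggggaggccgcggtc
Myl9: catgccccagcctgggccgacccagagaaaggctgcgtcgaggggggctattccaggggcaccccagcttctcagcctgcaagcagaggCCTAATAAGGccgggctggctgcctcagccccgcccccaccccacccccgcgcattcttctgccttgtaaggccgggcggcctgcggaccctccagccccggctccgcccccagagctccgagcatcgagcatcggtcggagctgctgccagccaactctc
Cnn2: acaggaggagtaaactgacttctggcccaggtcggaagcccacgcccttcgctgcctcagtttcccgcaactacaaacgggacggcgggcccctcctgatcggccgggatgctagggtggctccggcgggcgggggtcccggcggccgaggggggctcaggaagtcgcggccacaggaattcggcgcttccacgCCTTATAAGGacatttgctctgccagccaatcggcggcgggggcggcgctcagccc
Tpm1: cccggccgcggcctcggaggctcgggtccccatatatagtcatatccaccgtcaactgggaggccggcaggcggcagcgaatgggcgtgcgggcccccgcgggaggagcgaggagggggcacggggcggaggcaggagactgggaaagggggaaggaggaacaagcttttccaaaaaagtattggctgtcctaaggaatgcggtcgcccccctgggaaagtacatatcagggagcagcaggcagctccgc
A match describes these letters only, and its absence from a window says nothing of SRF.

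None of the 3 actins tested was called, and 1 (Actb) had an unadjusted p under 0.05. Actb, which encodes beta-actin, had normalized read counts of 5660.9, 5134.7, 5183.2 and 7880.4 in controls and 4164.9, 4321.5, 4889.9 and 4532.8 in p16 samples. Every p16 value lay below every control value, but the fitted change of -0.39 (SE 0.13) did not pass the threshold (limma adjusted p = 0.132, exact two-sided permutation p = 0.0286, the smallest p that 4 against 4 samples allow). Actg1, the gamma-actin gene, averaged 4866 ± 493 (SD, n = 4) in controls and 4636 ± 383 in p16 cells, and its groups overlapped. Acta2, the smooth muscle actin, was scarce in both groups (9.25 ± 2.39 and 8.23 ± 2.25) and its fitted change was -0.16, with an interval from -0.84 to 0.53. The sarcomeric Acta1 and the enteric Actg2 were at 0 reads in all 8 samples.

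Tropomyosins wind along the filament and gate the access of myosin, and their 4 genes behaved unequally. Tpm1 (ENSMUSG00000032366, chr9:67022590-67049406) had normalized read counts of 503, 458.2, 725 and 624.9 in controls and 219.1, 299.8, 222.6 and 252.4 in p16 samples. The highest p16 sample stood well below the lowest control sample, and the group mean was 2.33-fold lower (log2 change -1.20, SE 0.14, limma adjusted p = 0.000299, exact permutation p = 0.0286). Tpm2 (ENSMUSG00000028464, chr4:43514711-43523765) had 306.4, 206.6, 346.6 and 340.7 in controls and 160.7, 203.8, 167.6 and 215.4 in p16 samples. Control replicate 2 lay among the p16 samples, and the other controls lay above all of them. Its mean was 1.61-fold lower (log2 change -0.66, SE 0.16, limma adjusted p = 0.0303, exact permutation p = 0.0571). The Tpm2 call passed in 3 of 8 fits with 1 library left out, the fewest of the 9, and the limma adjusted p reached 0.0962 without control replicate 1, 0.0991 without control replicate 3, 0.0982 without control replicate 4, 0.114 without p16 replicate 1 and 0.0889 without p16 replicate 3. Tpm3 (log2 change -0.04) and Tpm4 (0.01), which make the short non-muscle tropomyosins, were not called, with 95% intervals from -0.23 to 0.15 and from -0.21 to 0.23. The sum over the 4 genes was 1945.9 to 2490.6 in controls and 1584.8 to 1796.5 in p16 samples, without overlap.

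Among the myosin light chains and their kinase, the kinase gene was the one that passed the test. Mylk (ENSMUSG00000022836, chr16:34745210-35002420) had normalized read counts of 16.3, 16.7, 15 and 15.3 in controls and 2.4, 3.9, 7.1 and 3.3 in p16 samples. The control values were nearly equal, and all p16 values lay under them. They rested on few reads, 22, 13, 18 and 10 in controls and 3, 5, 8 and 4 in p16 samples. The mean was 3.79-fold lower (log2 change -1.78, SE 0.32, limma adjusted p = 0.00603, exact permutation p = 0.0286). Myl9, a regulatory light chain best known from smooth muscle, had 18.5, 6.4, 13.4 and 13.8 in controls and 0.8, 5.5, 6.2 and 2.5 in p16 samples. The groups were separate by a narrow margin, with a mean 3.47-fold lower, and the call was missed (log2 change -1.68, SE 0.46, limma adjusted p = 0.0611, exact permutation p = 0.0286). The Myl9 adjusted p was 0.0414 without control replicate 2, 0.04999 without p16 replicate 2 and 0.0490 without p16 replicate 3 by limma, and 0.0476 by DESeq2 on recovered reads.

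Myl6, the essential light chain of non-muscle myosin II, had 3049.7, 3150.6, 3202.1 and 3391.7 in controls and 2660.9, 2706.9, 2527 and 2981.3 in p16 samples. Its groups did not overlap, but the difference was small (log2 change -0.24, SE 0.09) and not called (limma adjusted p = 0.198, exact permutation p = 0.0286). Myl12a and Myl12b, neighboring genes for near-identical regulatory light chains whose reads the counting could split, had fitted changes of -0.13 and 0.05 and overlapping groups.

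Of the heavy chains that form the myosin II motors, Myh14 (non-muscle myosin IIC, ENSMUSG00000030739, chr7:44605803-44670843) fell. Its normalized read counts were 206.2, 161.7, 220.5 and 174.2 in controls and 139.9, 112.4, 103.7 and 140.6 in p16 samples. All p16 samples lay below all controls, and the mean was 1.54-fold lower (log2 change -0.62, SE 0.14, limma adjusted p = 0.022, exact permutation p = 0.0286). The Myh14 call was lost without control replicate 1 (limma adjusted p = 0.0804), control replicate 3 (0.0761), p16 replicate 2 (0.0547) or p16 replicate 3 (0.0704). Myh9, which encodes the non-muscle myosin IIA motor, had 1450.3, 1400.1, 1382.3 and 1433.1 in controls and 1214.5, 1234.4, 1303.4 and 1336.9 in p16 samples. These groups were also separate, yet they differed by 1.11-fold only and were not called (log2 change -0.16, SE 0.08, limma adjusted p = 0.379, exact permutation p = 0.0286). Myh10, the myosin IIB gene, had at most 5 reads in a control and at most 2 in a p16 sample. Its groups overlapped, and the fitted change of -1.33 (95% interval -2.39 to -0.27) was not called (limma adjusted p = 0.185). The smooth muscle heavy chain Myh11 had at most 1 read in any sample and was not tested.

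The calponin family and caldesmon, proteins that bind the filament, had a median log2 change of -0.90 over 4 tested genes, which was -0.35 when genes below the filter were kept. Cnn3 (calponin 3, ENSMUSG00000053931, chr3:121426497-121458207) had normalized read counts of 21.5, 16.7, 30.1 and 19.9 in controls and 7.2, 9.4, 1.8 and 4.1 in p16 samples. Its mean was 3.92-fold lower (log2 change -1.93, SE 0.38, limma adjusted p = 0.011, exact permutation p = 0.0286). Cald1 (caldesmon 1, ENSMUSG00000029761, chr6:34598500-34775473) had 140.2, 84.7, 142 and 110 in controls and 34.4, 57.8, 47.9 and 13.2 in p16 samples. Both genes were lower in every p16 sample than in any control, with the deepest value of Cnn3 in p16 replicate 3 and that of Cald1 in p16 replicate 4. The Cald1 mean was 3.11-fold lower (log2 change -1.76, SE 0.34, limma adjusted p = 0.00948, exact permutation p = 0.0286).

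The remaining genes of this family were not called. Cnn2, which encodes the calponin of non-muscle cells, had 759.6, 902.2, 905.4 and 866.3 in controls and 950.7, 932.2, 974.4 and 958.7 in p16 samples. All p16 values were above all controls, and the difference was 1.11-fold and not called (log2 change 0.16, SE 0.09, limma adjusted p = 0.423, exact permutation p = 0.0286). Tagln2, the non-muscle transgelin, averaged 1463 ± 197 in controls and 1421 ± 173 in p16 cells and overlapped. Cnn1 and Tagln, which mark smooth muscle, had at most 2 reads in any sample and were not tested.

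**Figure D2:**
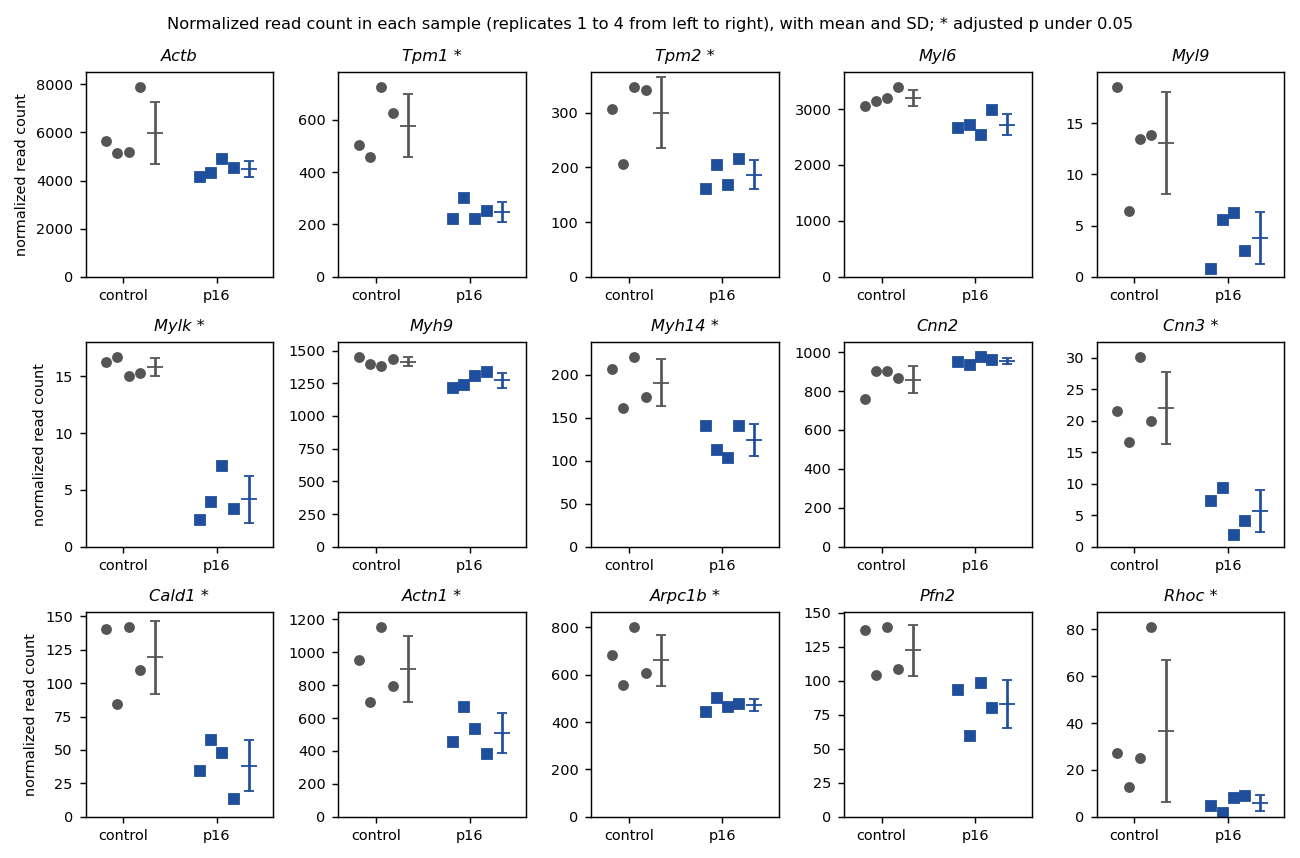
Normalized read counts (y axis, from 0) of the 15 members that were called or whose groups did not overlap, in the 4 control (gray circles) and 4 p16 samples (blue squares), with mean and SD. Stars mark the 9 called genes, and of the 15 only Tpm2 has a control value among the p16 values and only Cnn2 is higher in p16 cells.

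Among the crosslinkers 1 of 4 was called, and fitted changes lay on both sides of 0. Actn1 (alpha-actinin 1, which bundles stress fibers and anchors them at adhesions, ENSMUSG00000015143, chr12:80167547-80260371) had normalized read counts of 951.8, 695.6, 1153.4 and 794.5 in controls and 452.5, 667.5, 532 and 382.3 in p16 samples. P16 replicate 2 came close to control replicate 2, but the groups stayed apart. The mean was 1.77-fold lower (log2 change -0.82, SE 0.17, limma adjusted p = 0.0144, exact permutation p = 0.0286), and the Actn1 call was lost without control replicate 1 (limma adjusted p = 0.0556) or p16 replicate 1 (0.0570). Its paralog Actn4 differed by -0.08 on the log2 scale, with an interval from -0.26 to 0.11. Flna, the filamin that joins filaments at right angles and links them to integrins, averaged 358 ± 51.4 in controls and 472 ± 67 in p16 cells. This was the highest fitted change of the members (0.40, SE 0.12), with overlapping groups and no call (limma adjusted p = 0.0971, exact permutation p = 0.0571). The Flna adjusted p was 0.0417 without control replicate 4. Flnc, the muscle filamin, had at most 2 reads in a p16 sample and 7 in a control, with 0 in control replicate 2. Its fitted change of -1.03 had a 95% interval from -2.32 to 0.27 (limma adjusted p = 0.456).

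The Arp2/3 complex, which nucleates branched filaments, was represented by 8 genes with a median log2 change of -0.04. Arpc1b (ENSMUSG00000029622, chr5:145114215-145130705) was the exception. Its normalized read counts were 681, 554.4, 801 and 606.5 in controls and 443.8, 502.8, 464.6 and 475.2 in p16 samples. The p16 values were tightly grouped under the controls, and the mean was 1.4-fold lower (log2 change -0.47, SE 0.11, limma adjusted p = 0.0277, exact permutation p = 0.0286). The Arpc1b call was lost without control replicate 1 (limma adjusted p = 0.0906), control replicate 3 (0.0791), p16 replicate 1 (0.104) or p16 replicate 3 (0.0721), and when libraries were scaled to equal totals. Arpc1a, which encodes the alternative form of the same subunit, had a fitted change of -0.20 and overlapping groups (limma adjusted p = 0.406). The other 6 genes (Arpc2, Arpc3, Arpc4, Arpc5, Actr2 and Actr3) had fitted changes from -0.16 to 0.11.

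Filament turnover and capping were covered by Cfl1 and Cfl2, the cofilins that sever filaments, Pfn1 and Pfn2, the profilins that load actin monomers, and the capping subunit Capzb. None of the 5 was called by limma without a replicate term, whereas Cfl2 and Pfn2 were lower at an unadjusted p under 0.05. Pfn2 had normalized read counts of 137.2, 104, 139.5 and 108.5 in controls and 93.5, 59.3, 98.4 and 79.8 in p16 samples. The groups were separate and the mean was 1.48-fold lower (log2 change -0.57, SE 0.17, limma adjusted p = 0.0846, exact permutation p = 0.0286). Its counterpart Pfn1 averaged 520 ± 88 in controls and 647 ± 177 in p16 cells, with its highest value, 896.2, in p16 replicate 4. Fitted changes were -0.04 for Cfl1, -0.22 for Cfl2 and -0.15 for Capzb, all with overlapping groups.

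The ERM proteins tie filaments to the plasma membrane. Their genes Ezr, Msn and Rdx had fitted changes of 0.17, -0.03 and -0.31 and overlapping groups. The lowest adjusted p of the 3 was that of Rdx (limma adjusted p = 0.257), whose mean was 858 ± 97.7 in controls and 699 ± 125 in p16 cells. Srf averaged 202 ± 15.2 in controls and 223 ± 44.2 in p16 cells, with 287 in p16 replicate 4 and the other p16 samples between 188.2 and 213.5. Its cofactors Mkl1 (MRTF-A) and Mkl2 (MRTF-B) had fitted changes of 0.13 and -0.03, and no member of this trio was called (lowest limma adjusted p = 0.668) or had an unadjusted p under 0.05. The 95% intervals were -0.15 to 0.41 for Srf, -0.13 to 0.39 for Mkl1 and -0.30 to 0.24 for Mkl2.

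Of the small GTPases, which govern contractility through ROCK and formins, Rhoc (ENSMUSG00000002233, chr3:104788375-104794459) fell. Its normalized read counts were 27.4, 12.8, 25.1 and 81 in controls and 4.8, 1.6, 8 and 9 in p16 samples. Control replicate 4 was far above the other controls, and all p16 samples were below the lowest control. The mean was 6.25-fold lower (3.72-fold without control replicate 4) and the log2 change -2.32 (SE 0.51, limma adjusted p = 0.02, exact permutation p = 0.0286). The Rhoc call was lost without control replicate 1 (limma adjusted p = 0.0585), control replicate 4 (0.0523, with a log2 change of -1.84) or p16 replicate 1 (0.0583). Rhoa and Rhob, the other members of this GTPase family, had fitted changes of -0.04 and -0.14, with intervals from -0.25 to 0.16 and from -0.45 to 0.17. The kinases Rock1 and Rock2 had fitted changes of -0.40 and -0.33 and were not called. Without p16 replicate 4 these changes were 0.04 and 0.03. Both were lowest in that library, where Rock1 was at 95.4 and Rock2 at 73.2, while the other p16 samples ranged from 263.1 to 373.3 and from 150.3 to 226.1, within the control ranges except for the lowest Rock2 value.

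**Figure D3:**
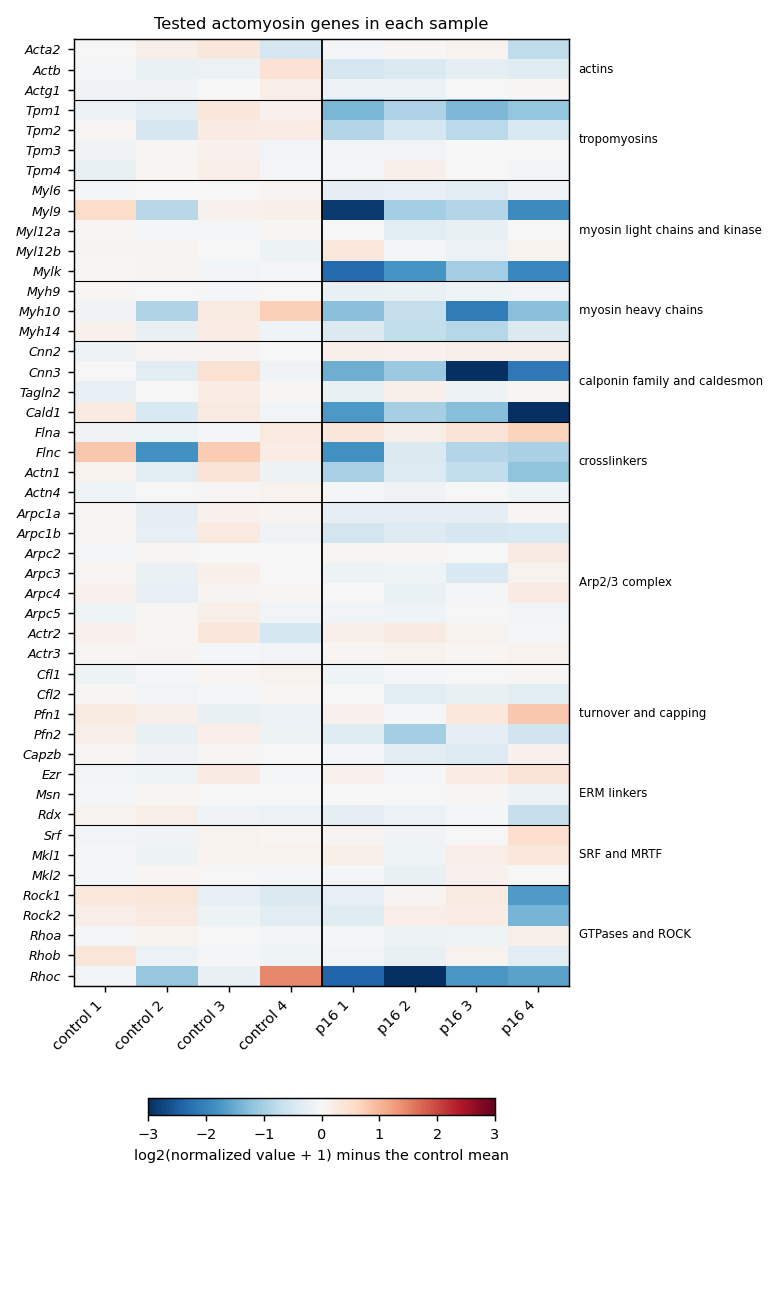
Log2(normalized value + 1) of the 47 tested members (down the side, by role) in each of the 8 samples (across), as the difference from the control mean of the gene, with the color scale ending at -3 and 3. Tpm1, Mylk, Cnn3, Cald1 and Rhoc are blue in all 4 p16 samples, while the Arp2/3 genes other than Arpc1b, and the SRF and MRTF genes, are paler and mixed in color.

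Paralogs thus had unequal fitted changes in the same pooled samples. Tpm1 and Tpm2 fell and Tpm3 and Tpm4 were not called, Actn1 fell and Actn4 was not called, Cnn3 fell and Cnn2 was slightly above the controls, and Rhoc fell with Rhoa and Rhob not called. The difference between paralogs was not tested. Group medians of the log2 change were -0.16 for actins, -0.35 for tropomyosins, -0.24 for light chains and kinase, -0.62 for heavy chains, -0.45 for crosslinkers, -0.15 for turnover and capping, -0.03 for ERM linkers, 0.13 for SRF and MRTF and -0.33 for the GTPases and ROCK. The heavy chain and crosslinker medians depended on Myh10 and Flnc, which had few reads. At a mean of at least 10, which left both out, they were -0.39 and -0.078. Tpm1, Mylk and Cald1 passed the threshold in all 16 alternative settings, and Cnn3 in 15 of 16. In exons of the GENCODE annotation, Mylk, Myh14, Cnn3, Actn1 and Arpc1b overlap genes of the opposite strand, and whether reads were counted by strand is not given in the sources used here.

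Beyond the members, 111 other regulators of actin, in 112 entries of the table since 1 symbol stands for 2 gene identifiers, were read from the same fit, and 108 entries passed the filter. They are formins, Ena/VASP and WAVE proteins, factors that bind, sever, cap or bundle actin, stress fiber and focal adhesion proteins, and regulators of myosin and of small GTPases. By limma 1 was called higher (0.926%) and 3 lower (2.78%), which lay near the 1.24% and 2.61% of all tested genes. Fhod3, a formin that assembles actin in muscle, had 23.7, 24.4, 17.5 and 27.5 normalized reads in controls and 68, 52.3, 46.1 and 37.8 in p16 samples, and its mean was 2.19-fold higher (log2 change 1.09, SE 0.22, limma adjusted p = 0.0115). Every p16 sample was above every control. Fermt2, the integrin activator kindlin-2, had 26, 15.4, 17.5 and 27.5 in controls and 4.8, 8.6, 3.5 and 0.8 in p16 samples, 4.88-fold lower (log2 change -2.25, SE 0.44, limma adjusted p = 0.00952). Arhgef2, an exchange factor that activates RhoA, had 91.2, 68, 97.7 and 91.7 in controls and 44, 46.1, 68.3 and 37.8 in p16 samples, 1.78-fold lower (log2 change -0.84, SE 0.19, limma adjusted p = 0.0222). Fermt2 was separate between the groups, and Arhgef2 overlapped by the narrowest of margins, with p16 replicate 3 just above control replicate 2. The number called moved with single libraries, from 0 to 2 higher (0 without p16 replicate 1, 2 without p16 replicate 4) and from 2 to 6 lower (6 without control replicate 2).

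Cells other than interfollicular keratinocytes also express several of these genes, so their markers were read in the same samples. Keratinocyte markers were high in both groups (summed normalized read counts of 29266 to 44708.2 in controls and 29302 to 34381.5 in p16 samples), and none of the 7 was called by limma, with 1 higher (Krt1) and 1 lower (Dsp) at an unadjusted p under 0.05. Of 12 markers of the hair follicle bulge and outer root sheath, 9 fell in p16 cells (Cd34, Krt15, Sox9, Lhx2, Tcf7l1, Nfatc1, Fgf18, Krt6a and Krt75), while Postn was higher at an unadjusted p under 0.05 and not called (log2 change 0.73, limma adjusted p = 0.272). The sum over all 12, to which Krt15 and Krt17 gave the most, was 19370 to 27266.8 in controls and 14972.4 to 17254.6 in p16 samples, with no overlap. Of the 4 melanocyte markers tested, Dct and Tyrp1 fell, and the sum of the 5 listed was 63.4 to 411 in controls and 13.9 to 80.4 in p16 samples. The part of these follicle and melanocyte values in the lower level of the actomyosin genes was not tested, and in bulk samples fewer cells of a type cannot be told apart from less RNA per cell.

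Smooth muscle and pericyte markers summed to 667.5 to 945.6 in controls and 683.3 to 754.8 in p16 samples. Most of this sum came from Notch3, Cspg4 and Smtn. Their means were 298, 273 and 226 in controls and 327, 227 and 138 in p16 samples. Of the 12 markers, 7 had at most 3 reads in every sample, and Des and Kcnmb1 were at 0 throughout. Smtn, a filament-binding protein of contractile cells, was called lower (log2 change -0.69, limma adjusted p = 0.0181). Skeletal muscle markers summed to 3.9 to 16.7 in controls and 11.5 to 18.4 in p16 samples, with 10 of 12 at 3 reads or fewer and Myh1, Myh4 and Tnnt3 at 0. Fibroblast markers summed to 187.8 to 346.8 in controls and 219.2 to 359.9 in p16 samples, and Lum was at 0. Within that list Dcn was called higher (log2 change 3.82) and Fbln1 and Vim lower (-0.98 and -2.20). Immune sums were 81.5 to 96.3 and 85.2 to 120.7, with Lyz2 at 0, and endothelial sums 4.6 to 8.2 and 7.8 to 12, with Cdh5, Kdr and Emcn at 0. The part of these markers in the members' values was not tested.

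**Figure D4:**
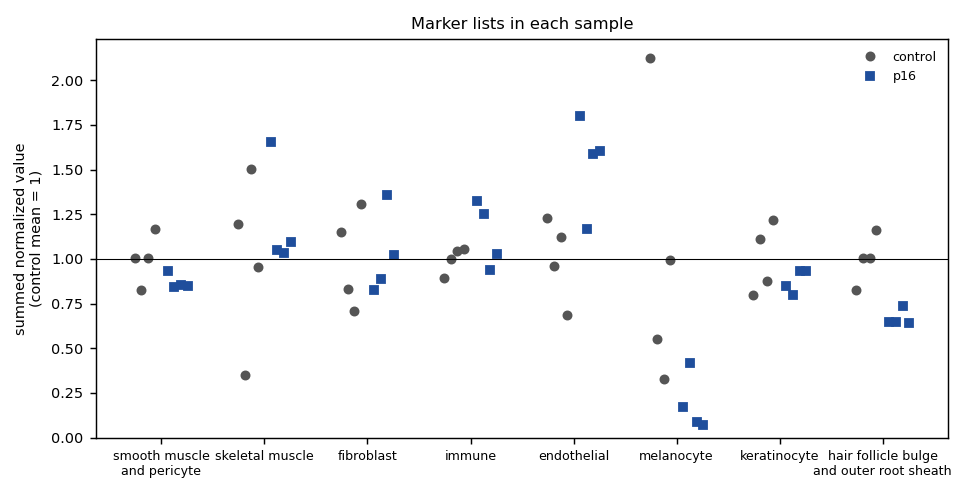
Summed normalized value of each marker list (y axis, relative to the control mean of 1) in the 4 control (gray circles) and 4 p16 samples (blue squares). The hair follicle sums are lower in all p16 samples than in any control, and the melanocyte sums range widest between controls.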

How the data were processed

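Sorted GFP+ keratinocytes were profiled in 4 control and 4 p16 samples, each a pool of 3 mice, obtained in 3 independent experiments whose assignment to samples is not given in the sources used here. The labels list 13 further samples, not analysed here. The authors prepared 3′ libraries by an adapted CEL-Seq2 protocol, trimmed reads with Cutadapt and aligned them to GRCm38 with Tophat2. The submitters' processing notes also name HTSeq and DESeq2, and tool versions, annotation, strand of counting and use of molecular identifiers are not given in the sources used here. The deposited signal values are normalized read counts, that is, reads per gene divided by a size factor and rounded to 1 decimal. Columns with the authors' group means, log2 ratio, test statistic, p-value and adjusted p-value were not used.

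The main test was limma's moderated comparison with a trend of variance on mean (limma 3.58.1, R 4.3.3). It was run on log2(value + 1) for genes with a mean of at least 1, adjusted by the Benjamini-Hochberg method over all genes tested, with a call at 0.05. Fold changes on this scale understate the change of low genes. For single members, group means were also compared by exact permutation, two-sided. Folds given without log2 are ratios of mean values. Dividing each value by what 1 read is worth gave whole reads (within 0.051) for 100% of values, and edgeR 4.0.16 and DESeq2 1.42.0 on these reads were alternatives, beside a pseudocount of 0.1, other filters, a replicate block, equal library totals and samples left out. The fits were tested on simulated data. Intervals are 95% and the detection floor of 3 reads, worth 2.23 to 4.58 normalized reads, covers counting error only. Genes given with every sample's value are all members called or without overlap between groups, and of the wider regulators those called, 1 of which is not reported here. Coordinates are those of GENCODE on GRCm38. The members and lists were chosen with earlier results of these data known. Same-numbered samples deviated together only weakly from their group means (Pearson r across genes 0.00360 to 0.0826, none above 0.1). Other pairings ranged from -0.0996 to 0.0586, and the numbers were not taken to pair samples. Whether same-numbered samples shared an experiment is not given in the sources used here, and the replicate block was run as an alternative.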

Additional observations from a re-analysis of the deposited data

Results flagged for a closer look

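For 3 of 94 groups of 4 values (the 47 tested members in each condition), 1 sample stood apart from the other 3 by more than Dixon's 95% critical value for the gap over the range, which chance alone gives in about 1 of 20 groups. Arpc1a was 880.6 in p16 replicate 4, with the other p16 samples between 690.7 and 708.9. Arpc2, another Arp2/3 subunit, was 2861.3 in the same library, with the others between 2430.3 and 2473. Ezr was 851.9 in control replicate 3, with the other controls between 658.4 and 689. None of these 3 genes was called by limma.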

How the results depend on the processing

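No called gene changed direction, and Tpm1, Mylk and Cald1 were called in every setting run. With the replicate number as a block, 10 members were lower (Pfn2 added, limma adjusted p = 0.0202) and 1 higher (Flna, 0.0202), and no other member's call changed. Over all genes 216 were then called higher and 392 lower, beside 159 and 334 without the block. With each library left out in turn, members called lower ranged from 4 (without control replicate 1) to 10 (without control replicate 2) and higher from 0 to 1 (Flna, without control replicate 4), all genes called higher from 69 to 196 and lower from 176 to 343, and wider regulators higher from 0 to 2 and lower from 2 to 6. Without replicate 3 of both groups, 63 genes were called higher and 150 lower, members lower numbered 3, wider regulators 0 higher and 1 lower, and medians of the log2 change were -0.67 for calponins with caldesmon and -0.0497 for turnover and capping. Without a filter on low values, medians were -0.39 for heavy chains and -0.35 for calponins with caldesmon, and at a mean of at least 10 they were -0.18 for light chains and kinase, -0.39 for heavy chains and -0.078 for crosslinkers, since other genes entered or left each group. By edgeR these were -0.19, -0.40 and -0.085, with 9 members lower, and by DESeq2 -0.39 for heavy chains and -1.32 for calponins with caldesmon, with 10 members lower (Myl9 added). Without adjustment for multiple testing, 897 genes were higher and 1141 lower, 1 and 16 of the members and 9 and 16 of the wider regulators. The cause of the other shifts was not tested. Depth limits the members below about 20 normalized reads (Acta2, Mylk, Myl9, Myh10 and Flnc, and Cnn3 and Rhoc in p16 cells), where a few reads set the fold.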
